A study of Mus musculus with 2 samples.

Results

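The regions described here are those called near the genes of 6 transcription factors of the corneal epithelium, Pax6, Trp63, Klf4, Klf5, Ehf and Elf3, in a chromatin immunoprecipitation and sequencing study of a tagged cofactor. A region was a member when its midpoint fell in a fixed mm9 window around the gene. The windows were chr2:105400000-105700000 for Pax6, chr16:25500000-26200000 for Trp63, chr4:55440000-55650000 for Klf4, chr14:99550000-99850000 for Klf5, chr2:103000000-103250000 for Ehf and chr1:137050000-137260000 for Elf3. They held 59 of the 68211 regions in both lists, 25 of 25592 in replicate 1 and 34 of 42619 in replicate 2. The rule uses position alone and no score or overlap, although the genes were chosen with earlier results of these data known.

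All chromatin came from corneal epithelium of K14 DN-Clim mice at postnatal day 7, in 1 group of 2 replicates that carried the same transgene and were precipitated with an antibody to its Myc tag. The K14 (keratin 14) promoter is active in basal epithelial cells. In which cells of the sampled epithelium the tagged dominant-negative Clim protein was present was not measured here. No wild-type, untagged or input library was analysed here, and the labels name neither a strain nor a number of animals. They do not say whether separate mice were used for the replicates, and a match between the lists may thus be technical. Read totals are likewise not in the sources used here, and the depth behind each region is unknown.

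Clim proteins, also called Ldb, are nuclear adaptors that dimerise and link LIM-domain proteins to DNA-bound complexes. They do not bind DNA themselves, and the dominant-negative form keeps the part that binds LIM domains. The 6 genes encode factors that do bind DNA. Pax6 is a paired-box and homeobox factor needed for eye formation and for the identity of the corneal epithelium. Trp63 encodes p63, a regulator of the proliferative basal layer of stratified epithelia. Klf4 and Klf5 are zinc finger factors of the Krüppel-like family, active in the barrier and in growth of the epithelium. Ehf and Elf3 belong to the epithelium-specific branch of the ETS family and act in epithelial differentiation.

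The lists hold no expression values, so the tissue label could not be checked against its markers. The windows were taken as given: no gene annotation in mm9 was used here, so positions are distances from the start of a window and not from a promoter. Whether a region lies in an exon, an intron or a promoter was therefore not analysed. In the RefSeq gene order of GRCm38, from which no position was taken, Pax6 is flanked by Rcn1 and Elp4, Trp63 by Tprg and P3h2, and Klf4 by Rad23b and Actl7b. Klf5 lies between Pibf1 and Klf12, Ehf between Apip and its ETS relative Elf5, and Elf3 between Gpr37l1 and Rnpep. A region in a window need not belong to the gene that gave the window its name.

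Every one of the 6 windows held at least 1 region found in both replicates, where found in both means an overlap of at least 1 bp. Elf3 and Klf5 had 4 shared regions each, Pax6, Trp63 and Ehf had 3 each, and Klf4 had 1. Of the 25 replicate 1 regions, 18 were shared (72.0%, exact Clopper-Pearson 95% interval 50.6 to 87.9%), beside 80.4% over the whole replicate 1 list. Of the 34 replicate 2 regions, 18 were shared (52.9%, 35.1 to 70.2%), beside 48.4% over the whole replicate 2 list. Both whole-list shares lay inside the interval of the members. The intervals cover counting error only.

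The density of shared regions over the 6 windows together was close to that of the autosomes. The windows held 9.14 shared regions per Mb over 1.97 Mb, beside 8.27 per Mb over the spanned length of the 19 autosomes, a ratio of 1.10. The ratio was 1.23 for all replicate 1 regions and 1.01 for all replicate 2 regions. The SD between these replicate ratios was 0.159, larger than the excess of the shared ratio over 1. It rests on 2 lists and describes the spread between them, not the counting error of a ratio from 18 shared regions. Among the upper 50% of each list by score, the ratio was 1.54, from 9 shared regions. With 1 group and no control, no test between groups was possible.

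The loci were ordered by their density of shared regions. Per 100 kb, Elf3 held 1.90 shared regions, Klf5 1.33, Ehf 1.20, Pax6 1.00, Klf4 0.476 and Trp63 0.429. Exact Poisson 95% intervals, again for counting error only, ran from 0.519 to 4.88 at Elf3 and from 0.0884 to 1.25 at Trp63. The intervals of all 6 loci overlapped, so counts of 1 to 4 did not separate the loci, which does not show that their densities are alike. The order also changed between the lists. Replicate 1 alone gave Ehf the highest density, 2.00 per 100 kb, with Klf4 and Elf3 at 1.90. Replicate 2 alone gave Elf3 4.76, Pax6 and Klf5 2.33, Klf4 1.43 and Ehf 1.20. Trp63 was lowest in both lists, with 0.571 per 100 kb in each. In replicate 2 the intervals of Elf3 (2.28 to 8.76) and Trp63 (0.156 to 1.46) did not overlap, while in replicate 1 (0.519 to 4.88 and 0.156 to 1.46) they did. Elf3 and Trp63 were picked here as the highest and the lowest locus of replicate 2, after the counts were seen. Regions of a single list are not replicates, so a difference between these loci was not tested.

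Set against consecutive autosomal windows of the same length, Elf3 stood highest and Trp63 lowest by shared and by replicate 2 regions. Its 4 shared regions were reached or exceeded in 14.9% of 11481 autosomal windows of 210 kb, and 4.02% had at least its 10 replicate 2 regions. For Trp63, its 3 shared regions were reached or exceeded in 73.6% of 3436 windows of 700 kb, and 93.8% had at least its 4 replicate 2 regions. At Klf5 and Ehf, 26.9% and 33.0% of same-length windows had as many shared regions or more. At Pax6 and Klf4 these shares were 40.4% and 70.6%. These percentages describe where each locus falls among windows and are not tests.

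**Figure D1:**
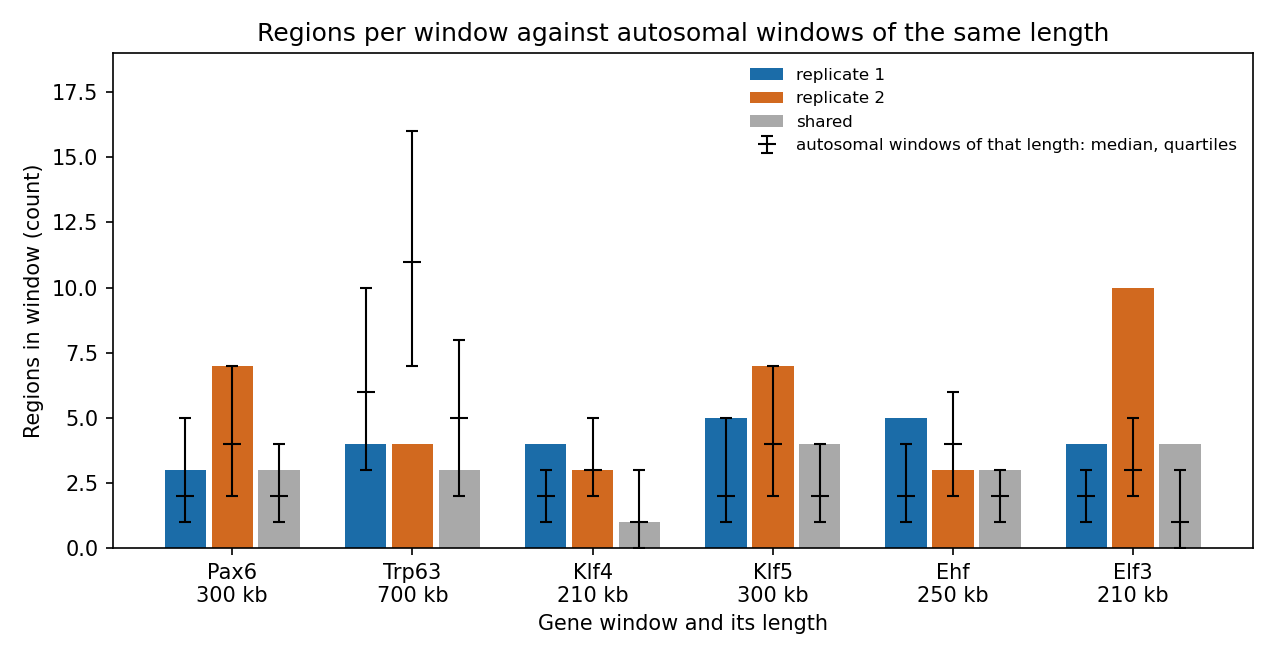
Number of called regions (y axis, count) in each gene window (x axis, with window length in kb) for replicate 1, replicate 2 and the regions shared by both. Bars are counts, and black marks show the median and quartiles over consecutive autosomal windows of the same length. The 10 replicate 2 regions of Elf3 lie above the upper quartile of 5, and the 4 of Trp63 lie below the lower quartile of 7.

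At Pax6, all 3 replicate 1 regions were found again in replicate 2, which had 4 more. The first shared region, chr2:105444544-105444625, lay 44.6 kb into the window and scored 192.79 in replicate 1 and 167.24 in replicate 2. The score is the authors' deposited value from the peak caller, of unstated scale, and is read here only by its percentile within a list. This region stood at percentile 63.2 of replicate 1 and 93.7 of replicate 2, so it ranked higher in the second list.

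The other shared Pax6 regions formed a close pair, 126.9 and 130.0 kb into the window, with 3039 bp between them. The region chr2:105526814-105526944 scored 159.31 and 73.73, percentiles 45.3 and 40.8, and so held a middle rank in both lists. Its neighbour chr2:105529984-105530114 scored 113.10 and 100.80, percentiles 20.9 and 67.0, a difference of 46.1 percentage points between the lists. The replicate 2 regions without a partner included the high-ranking chr2:105410827-105410881, with a score of 155.17 and percentile 91.8. It was 33662 bp from the nearest replicate 1 region. The remaining 3 scored 57.46 to 78.27 and lay 116.4, 137.2 and 151.6 kb into the window, around the close pair. No region of either list had its midpoint in the last 148.4 kb of the Pax6 window. Enhancers of Pax6 are known to lie far from its promoter, in introns of Elp4, but which part of the window holds Elp4 was not analysed here.

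At Trp63, the widest window, 3 of 4 regions in each list were shared. The shared regions lay 179.1, 220.3 and 664.7 kb into the window. The first, chr16:25679015-25679157, scored 223.66 in replicate 1 and 105.33 in replicate 2, percentiles 74.4 and 70.7. The second, chr16:25720235-25720364, scored 132.70 and 69.47, percentiles 29.5 and 36.0, the lowest of the Trp63 pairs in both lists. The third, chr16:26164664-26164792, scored 192.79 and 137.46, percentiles 63.2 and 86.9. The rank order of the first and the third was therefore reversed between the replicates.

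The highest-scoring replicate 1 region of the Trp63 window had no partner. It was chr16:25672175-25672253, with a score of 263.92 and percentile 84.9, and lay 6761 bp before the first shared region, which was also the nearest replicate 2 region. The replicate 2 region without a partner, chr16:25804842-25804899, scored 73.43. Between it and the last shared region, 359.8 kb held no region of either list. Of the gaps between consecutive autosomal regions, 0.706% were as long, a gap looked at after its length had been seen. It was the longest gap of the widest window, set against single gaps. The other windows, of 210 to 300 kb, are too short to hold a gap of that length. Regions of the Trp63 window thus fell into a group in its first part and a single shared region near its end.

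**Figure D2:**
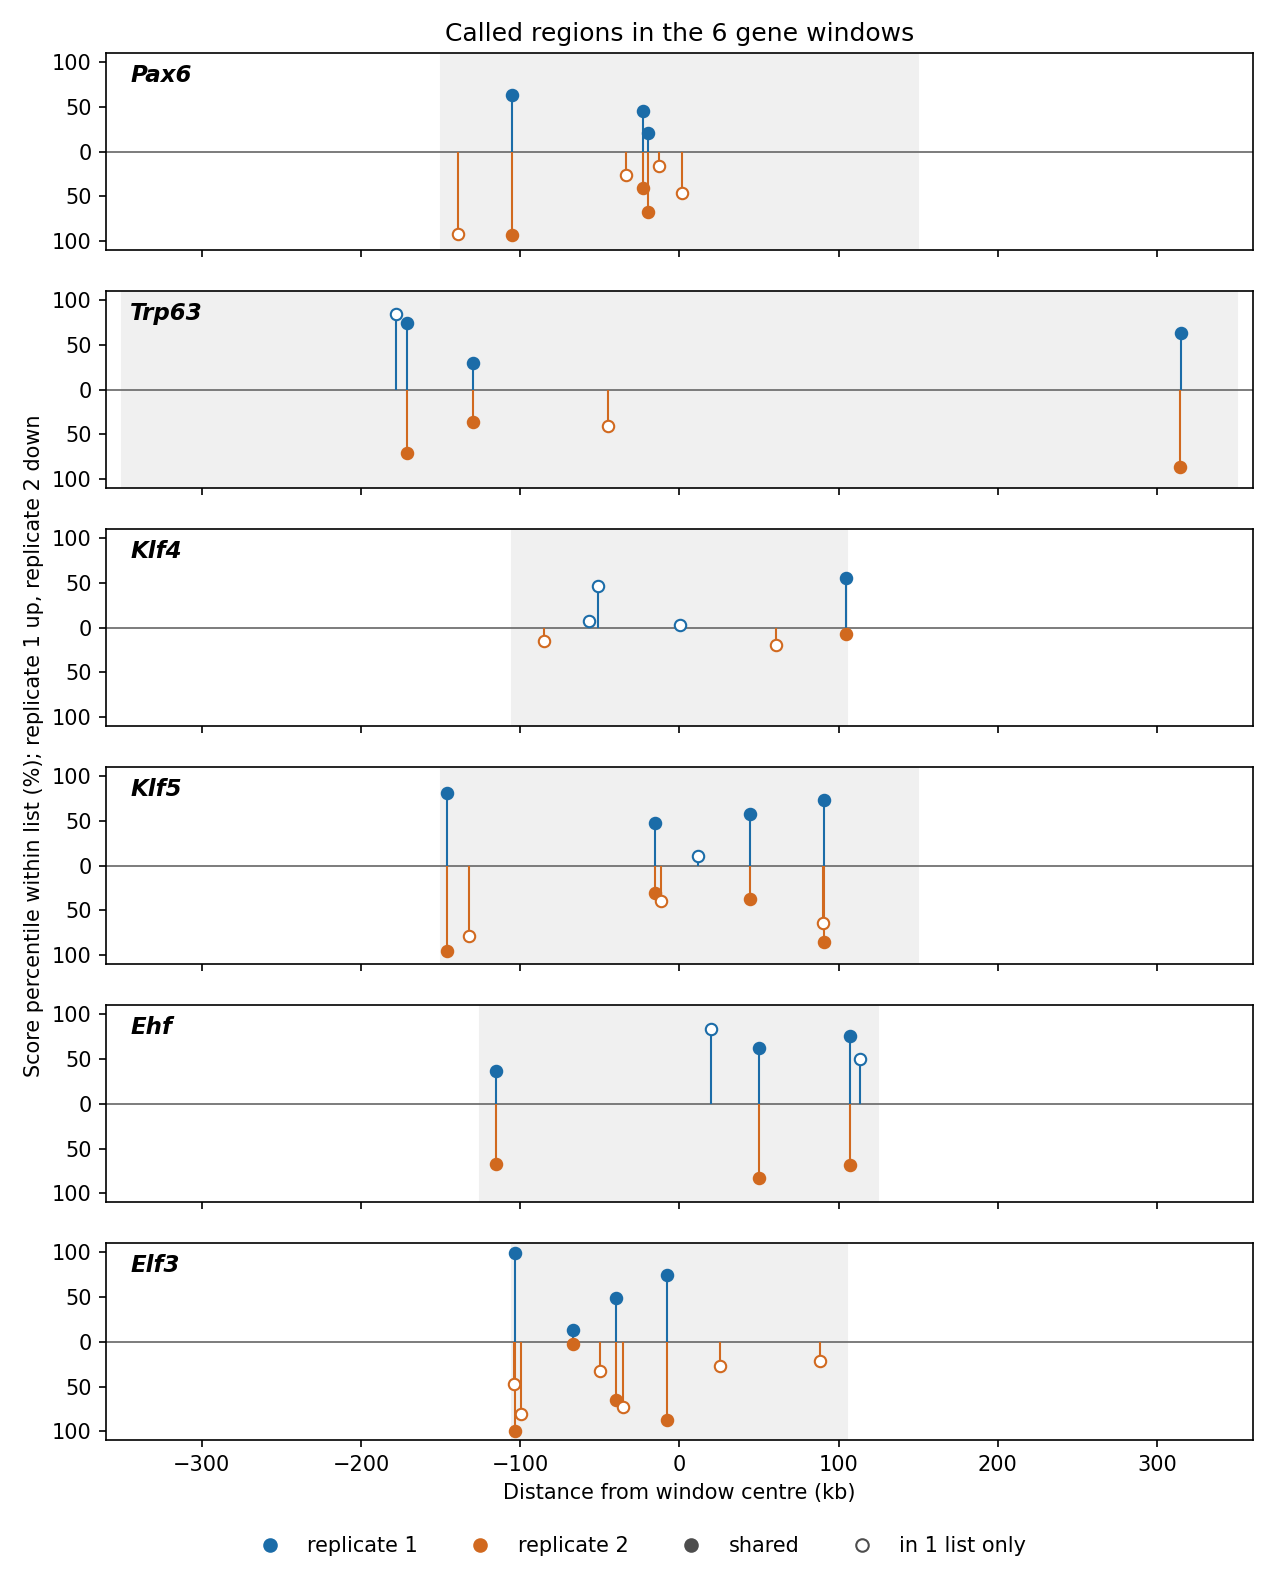
Position of every called region in the 6 windows (x axis, distance from the window centre in kb, window shaded in grey) against its score percentile within its own list (y axis, replicate 1 upward, replicate 2 downward). Filled points are shared and open points are in 1 list only. The gap of 359.8 kb in the Trp63 window and the single shared region at the edge of the Klf4 window can be seen.

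Klf4 had the lowest share of regions found again, 1 of 4 in replicate 1 and 1 of 3 in replicate 2. That shared region, chr4:55649429-55649593, lay 209.5 kb into the window and 0.5 kb from its end, so the rest of the window held none. With a reciprocal overlap of at least 50% it was not shared. It scored 176.29 in replicate 1, percentile 55.3, and 52.67 in replicate 2, percentile 7.09. The difference of 48.2 percentage points was the widest of the 18 pairs. The next regions beyond this edge, 14.6 kb outside the window, were again shared, with scores of 263.02 and 79.91. On the other side, the nearest regions outside the window, 17.7 and 17.8 kb away, were shared too.

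The unpaired Klf4 regions had low to middle ranks. In replicate 1 they were chr4:55493687-55493757, with a score of 162.27 and percentile 46.9, and a pair of regions with scores of 84.95 and 76.20, percentiles 7.78 and 2.91. In replicate 2 the unpaired regions scored 58.65 and 56.88, percentiles 19.2 and 15.4. Each was at least 27935 bp from a region of the other list. The deposited lists therefore held no repeated region in the Klf4 window apart from the one at its edge.

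Klf5, the other Krüppel-like factor, had 4 shared regions spread over its window, 4.0, 134.6, 194.2 and 241.0 kb from its start. The first, chr14:99553941-99554015, scored 247.46 and 176.03, percentiles 81.4 and 94.9, and was high in both lists. The last, chr14:99790897-99791021, scored 219.64 and 131.91, percentiles 73.2 and 85.0, and was also high in both. The regions between them ranked lower. The region chr14:99684472-99684682 scored 162.68 and 66.05, percentiles 47.2 and 30.7. The region chr14:99744121-99744191 scored 181.98 and 70.00, percentiles 57.9 and 36.7, and ended at the same base in both lists.

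Without a partner at Klf5 were 1 replicate 1 region, chr14:99711720-99711837, with a score of 90.20, and 3 replicate 2 regions. The highest of these, chr14:99568084-99568141, scored 117.22, percentile 78.1, and was 14068 bp from the nearest replicate 1 region. The other replicate 2 regions lay closer to shared ones. That at chr14:99688276-99688359, score 72.69, was 3651 bp from the nearest replicate 1 region, and that at chr14:99789851-99789931, score 97.23, was 1010 bp from it. The second and the last shared region thus had an unpaired replicate 2 region close by. The longest stretch of the Klf5 window without any region was 116.3 kb.

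At Ehf the lists were unequal in the other direction: all 3 replicate 2 regions were shared, while replicate 1 had 2 more. The shared regions lay 9.6, 175.1 and 232.3 kb into the window. The first, chr2:103009593-103009692, scored 144.91 and 100.80, percentiles 36.3 and 67.0, and started at the same base in both lists. The second, chr2:103174983-103175183, scored 190.21 and 126.83, percentiles 62.0 and 82.8. The third, chr2:103232226-103232340, scored 226.09 and 102.51, percentiles 75.6 and 68.6. In replicate 2 all 3 ranked within a narrow span, percentiles 67.0 to 82.8.

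As at Trp63, the highest-scoring replicate 1 region of the Ehf window had no partner. It was chr2:103145000-103145082, with a score of 254.40 and percentile 82.9, and the nearest replicate 2 region was 29915 bp away. The other, chr2:103238135-103238202, scored 166.69 and lay 5794 bp beyond the third shared region. Ehf and Klf4 were the windows with more replicate 1 than replicate 2 regions, although the replicate 2 list is the longer one.

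Elf3 had the strongest region of the 6 windows. The shared region chr1:137051616-137051778 scored 487.56 in replicate 1 and 289.71 in replicate 2, ranks 257 and 211 of the lists, percentiles 99.0 and 99.5. It lay 1.7 kb inside the start of the window and started at the same base in both lists. Replicate 2 had an unpaired region 674 bp before it, score 78.53, and another 3853 bp after the replicate 1 region, chr1:137055572-137055627, score 120.74 and percentile 80.3, the highest unpaired Elf3 region. The strongest region thus stood at the rim of the window, where the assignment to Elf3 rests on the placement of the window.

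The other shared Elf3 regions lay 38.0, 65.2 and 97.3 kb into the window. The region chr1:137087901-137088088 scored 96.25 and 50.80, percentiles 13.5 and 2.81, and was the weakest pair of the 18. The region chr1:137115110-137115243 scored 166.29 and 97.07, percentiles 49.2 and 64.5. The region chr1:137147304-137147385 scored 223.88 and 138.36, percentiles 74.7 and 87.1, with the same last base in both lists. All 4 Elf3 pairs kept the same order of scores in both lists. Of the 10 replicate 2 regions, 6 had no partner, with scores of 59.67 to 120.74. A further shared region lay 1.5 kb beyond the end of the window, with scores of 86.91 and 69.04, and was not counted.

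Across the loci, the members ranked near the middle of their lists. The median score was 176.3 for the 25 replicate 1 members, beside 167.8 over the list, and 87.8 for the 34 replicate 2 members, beside 82.14. The median percentiles were 55.3 and 55.5. The upper 10% of the list by score held 1 member in replicate 1, the strong Elf3 region. In replicate 2 it held 4, at Elf3, at Klf5 and, shared and unshared, at Pax6. Shared members had a median score of 186.1 in replicate 1 and 101.7 in replicate 2, while unshared members had 162.3 and 73.06. The same order held over the whole lists, with 172.8 and 149.2 in replicate 1 and 95.37 and 71.09 in replicate 2.

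The percentiles of the 18 pairs differed between replicates by a median of 14.4 percentage points, beside 26.1 over all 20651 pairs. By window this median ran from 6.54 at Trp63 to 48.2 at Klf4, from 1 pair. At Pax6 it was 30.6, also above that of all pairs. The difference between the 18 pairs and all pairs was not tested. Both percentiles were above 50 in 9 pairs (50.0%, beside 36.1% over all pairs) and at most 50 in 4 (22.2%, beside 19.1%). The percentile was higher in replicate 2 in 11 of 18 pairs (61.1%, beside 59.0%). In 5 pairs the replicate 2 score was below 70.03, the lowest score of the replicate 1 list. These were the Klf4 pair, the second Trp63 pair, the second and the third Klf5 pair and the weakest Elf3 pair. Over all pairs, 23.7% had such a score. The third Klf5 pair, with 70.00, and the second Trp63 pair, with 69.47, were only just below the limit. The replicate 2 list reaches down to 50.00, and with it limited to the lowest replicate 1 score 13 shared regions were left, with 2 at Klf5 and 0 at Klf4. This reading holds only if both lists share a score scale.

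**Figure D3:**
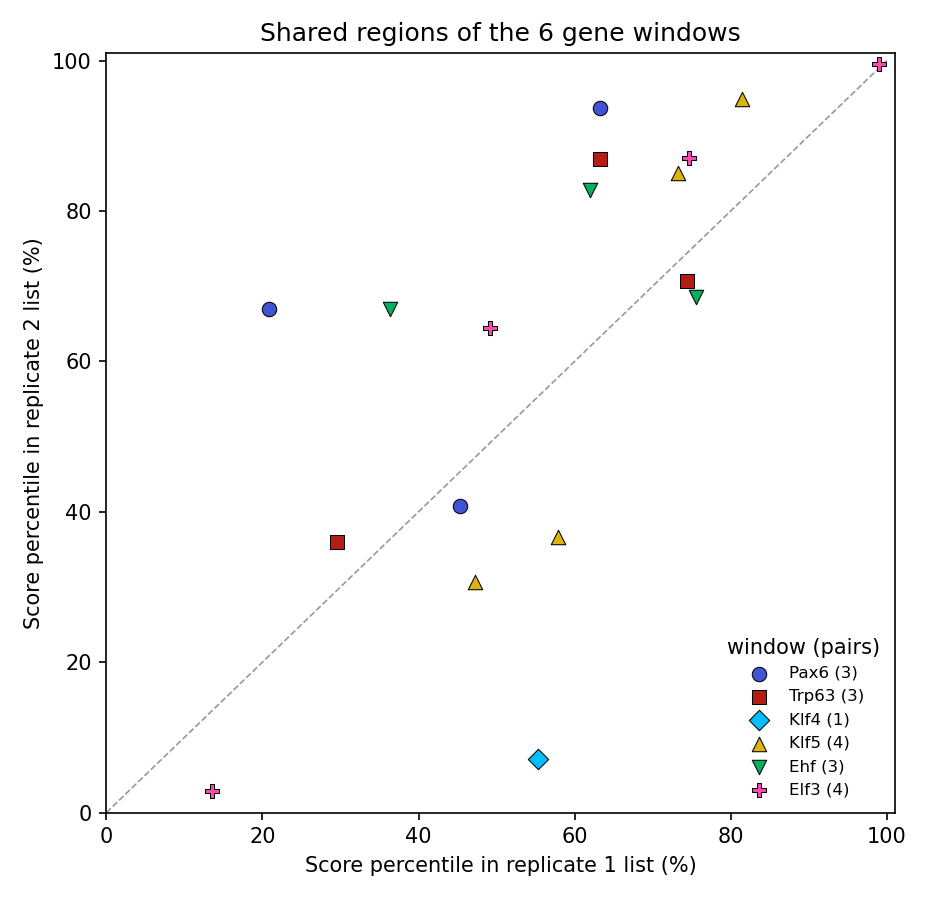
Score percentile of each of the 18 shared regions in the replicate 1 list (x axis, %) and the replicate 2 list (y axis, %), with 1 symbol per window and the line of equal percentiles dashed. The strongest Elf3 region sits at 99.0 and 99.5, and the Klf4 region, at 55.3 and 7.09, lies farthest below the line.

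Widths differed between replicates as well. Narrow here means below 105 bp in replicate 1 and below 100 bp in replicate 2, the emptiest bin between the narrow and the wide regions of each list. Of the 25 replicate 1 members 18 were narrow (72.0%, beside 62.7% over the list), and of the 34 replicate 2 members 16 (47.1%, beside 47.5%). Among the 18 pairs, 9 were narrow in replicate 1 and wide in replicate 2 (50.0%, beside 27.2% over all pairs). A further 5 were narrow in both (27.8%, beside 36.4%), 3 wide in both (16.7%, beside 23.4%) and 1 was wide in replicate 1 alone (5.56%, beside 13.1%). The last was the second Ehf pair, 201 bp wide in replicate 1 and 73 bp in replicate 2.

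The Trp63 window showed this most evenly. Its 3 shared regions were 74, 75 and 78 bp wide in replicate 1 and 143, 130 and 129 bp wide in replicate 2, and in each the replicate 1 region lay wholly inside the other. The same held for the Klf4 pair, with 71 and 165 bp. At Klf5 the outcome was mixed: the first and the third pair were narrow in both lists, with 75 and 60 bp and with 71 and 55 bp. An edge fell at the same base in 4 of the 18 pairs (22.2%, beside 15.2% over all pairs), 2 of them at Elf3 and 1 each at Klf5 and Ehf. With counts this small, no difference from the lists as a whole was tested.

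**Figure D4:**
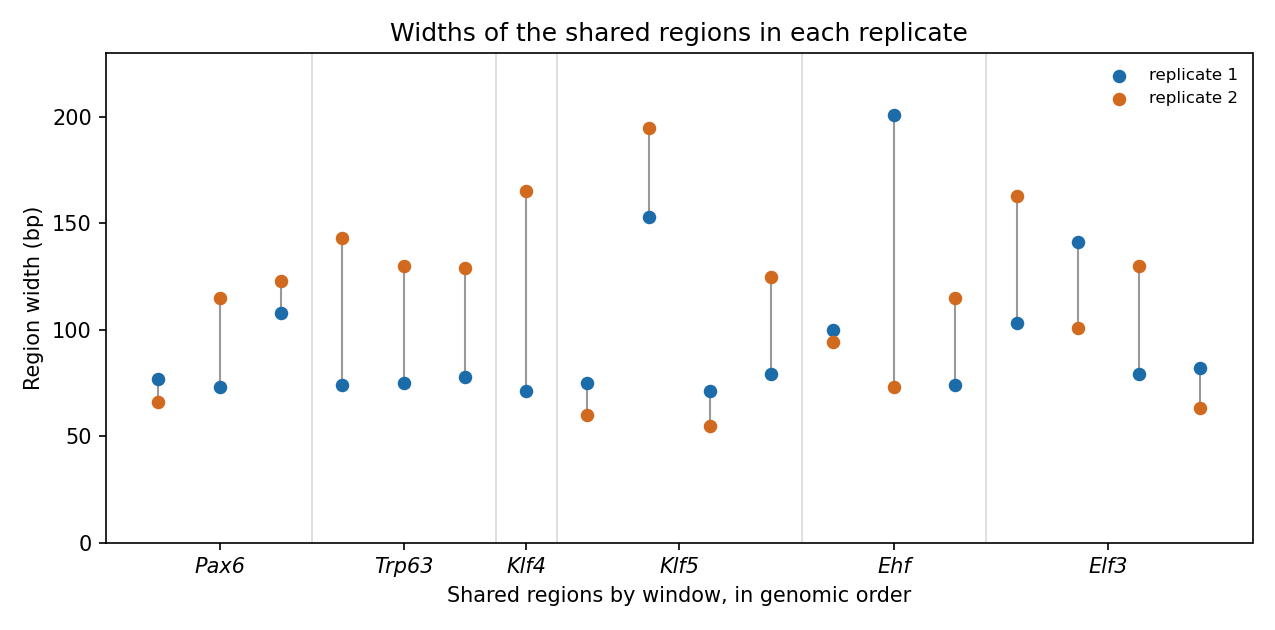
Width in bp (y axis) of the 18 shared regions in replicate 1 and replicate 2, joined by a line, by window in genomic order (x axis). At Trp63 the replicate 1 widths of 74 to 78 bp lie below the replicate 2 widths of 129 to 143 bp in every pair.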

How the data were processed

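Chromatin from 2 replicates was sequenced for 50 cycles, single-end, and the reads of 2 lanes were combined per replicate after alignment, per the labels' protocols. Bowtie 0.12.7, bedtools 2.11.2 and mm9 are named in the submitters' processing notes. Region names carry the prefix of MACS. For its version, limits and control, nothing is given in the sources used here. The authors deposited 1 list per replicate with a score for each region, whose scale is not stated. It may depend on depth and was used for ranks within a list.

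Members were found by midpoint. Overlaps, percentiles and intervals were computed with numpy 2.4.6, pandas 2.3.3 and scipy 1.17.1 in Python 3.11.15, figures with matplotlib 3.10.9. Same-length windows were laid end to end over the spanned length of each autosome. Overlap finding was run on simulated lists with planted regions, which overlapped their source by design, so this checks only that the code finds them. A separate count with bedtools 2.31.1 gave the same 20582 overlapping replicate 1 regions. The named-gene rule describes every shared region where a window has 10 or fewer, and names the highest-scoring unshared region of each list. Windows, genes and comparisons were chosen with earlier results of these data known. Of the alternatives, overlap rules, score limits, window edges, single lists, span and width class were tried. No mm9 sequence or annotation was used here, so no sequence is printed.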

Additional observations from a re-analysis of the deposited data

How the results depend on the processing

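Of 55 values recomputed under the alternatives, 38 stayed within 1.5 times the count, the interval or the spread between replicates. This tally does not measure stability, since some outcomes followed from the limits. The single-list density ratios were judged by the spread between those same ratios. Median percentiles were judged by the spread between 55.3 and 55.5, so almost any shift exceeded it. A count of 1, as at Klf4, left its limit with any change. Both shares of regions found again stayed within their intervals under every alternative run for them, but these intervals are wide. The replicate 1 share of 72.0%, with an interval of 50.6 to 87.9%, ran from 52% to 75%. It was 52% with replicate 2 limited to the lowest replicate 1 score and 56% with a reciprocal overlap of 50%. The replicate 2 share of 52.9% ran from 41.2% to 59.1%. The count of 18 shared regions became 9 with the upper 50% of each list by score, 9 with windows shortened by 25% at each end and 33 with windows lengthened by 50%. The density ratio of 1.10 was 1.54 with the upper 50% by score and otherwise between 1.01 and 1.23, values reached with replicate 2 alone and replicate 1 alone. With a reciprocal overlap of 50% the count of 18 became 14. It was then 0 at Klf4, 2 at Pax6, 2 at Ehf and 3 at Elf3, while Klf5 and Trp63 kept 4 and 3. With replicate 2 limited to the lowest replicate 1 score, 13 shared regions were left. There were then 0 at Klf4, 2 at Klf5, 2 at Trp63 and 3 at Elf3, while Pax6 and Ehf kept 3 each. Using 1 list in place of shared regions, that is without replicate 1 or without replicate 2, gave 3 to 7 regions at Pax6, 4 at Trp63, 3 to 4 at Klf4, 5 to 7 at Klf5, 3 to 5 at Ehf and 4 to 10 at Elf3. Counts fell or rose in part by construction, since fewer or more regions or bases entered. The median percentiles of 55.3 and 55.5 were 52.4 and 46.6 in lengthened windows, and 50.4 and 53.0 within width classes. These classes were split at the median width of each list, 83 bp in replicate 1 and 105 bp in replicate 2. They are not the narrow and wide classes used above. No paired analysis was possible because there is 1 group. Depth is unknown, so a region in 1 list only may have been missed in the other.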
